A study of Mus musculus with 12 samples.

Results

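Mouse hearts were examined for 7 genes that make, carry, hold, sense or cut hyaluronan in the matrix: the hyaluronan-binding proteoglycans versican (Vcan) and aggrecan (Acan), the link protein Hapln1, the hyaluronan synthases Has1 and Has2, the receptor Cd44 and the hyaluronidase Hyal2. They were chosen by name, with earlier results of these data known, as 7 of the 47729 genes of the count table. All 7 were among the 15336 genes with enough reads to be tested. Acan and Has1 passed that filter only through the groups where they were highest. The measurement was poly(A) RNA-seq of 12 heart libraries, 3 in each of 4 groups of male C57BL/6 mice aged 8 weeks. Osmotic pumps under the skin delivered angiotensin II (Ang II), a pressor hormone, or saline for 28 days. The Ang II + EHP-101 group received oral EHP-101 at 20 mg/kg during the last 2 weeks of Ang II infusion, the Ang II + Losartan group had losartan at 0.6 g/L in its drinking water during the same 2 weeks, the Ang II group had the hormone and vehicle with neither drug, and the Control group, whose titles call it the Ang II control, was taken as the saline animals. Losartan is a blocker of the angiotensin receptor AT1, and EHP-101 is an oral preparation of a cannabidiol derivative with PPARγ and CB2 among its targets. The labels do not say whether each library came from its own animal, so p-values here reflect only the scatter among these 12 samples, possibly technical scatter.

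Hyaluronan is a long unbranched sugar chain that synthases in the plasma membrane extrude into the matrix. Versican and aggrecan are hyalectans, large core proteins with chondroitin sulfate side chains that bind hyaluronan through a globular domain at their N-terminus, and link proteins lock that contact. In the heart this hydrated matrix fills the embryonic cushions that become valves, where mouse embryos depend on Has2 and versican, and it returns as a provisional matrix around fibroblasts after injury. Cells bind hyaluronan through CD44, and HYAL2 at the cell surface cuts long chains into shorter ones.

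Total counts were 22155418 to 24040516 reads per library. The 9 cardiomyocyte markers used to check the tissue summed to 55640 to 77630 per-million counts (CPM) across the 12 libraries. Control replicate 2 stood apart, with a first principal component score (35.3% of the variance) of 84.4, beside -32.4 to 12.7 in the other 11 libraries. Among the 7 genes it was the lowest Control library for 6, against 45.8% of all tested genes, and the highest for Hyal2. Ang II replicate 3 was the highest of its group for all 7 genes, against 31.2% of all tested genes.

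In GRCm38 with the GENCODE M21 annotation, Vcan (ENSMUSG00000021614) spans chromosome 13 from 89655312 to 89742509 on the minus strand and Hapln1 (ENSMUSG00000021613) spans 89539796 to 89611652 on the plus strand. The 3′ ends of this pair face each other across 43659 bases with 0 protein-coding genes between them. Acan (ENSMUSG00000030607) lies on chromosome 7 from 79053483 to 79115099, and 2 bases separate it from Hapln3, the link protein gene on the opposite strand. Has1 (ENSMUSG00000003665) lies on chromosome 17 from 17843323 to 17855205, Has2 (ENSMUSG00000022367) on chromosome 15 from 56665627 to 56694539, Cd44 (ENSMUSG00000005087) on chromosome 2 from 102811141 to 102901665 and Hyal2 (ENSMUSG00000010047) on chromosome 9 from 107567945 to 107572779. The counts are given per gene, so splice forms of Vcan and Cd44, each with 9 annotated transcripts, are not told apart. Of the 7 genes, Has2 alone shares annotated exon bases with another gene, 182 bases (4.3% of its exon length) with the antisense gene Has2os. The library kit keeps no strand, so the reads of that stretch cannot be assigned.

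Upstream sequences of the 3 members with the smallest p-values for Ang II against Control are shown. They were picked from these same data, and none of them passed the adjusted threshold in edgeR. Each is the 250 bases before the RefSeq start site (GRCm38.p6), written 5′ to 3′ on the gene's strand, with matches to a GC box (GGGCGG) or a CCAAT box (CCAAT), on either strand, in capitals. The windows are chr13:89742513-89742762 (minus strand) for Vcan, chr7:79052976-79053225 (plus strand) for Acan and chr17:17855189-17855438 (minus strand) for Has1.
Vcan: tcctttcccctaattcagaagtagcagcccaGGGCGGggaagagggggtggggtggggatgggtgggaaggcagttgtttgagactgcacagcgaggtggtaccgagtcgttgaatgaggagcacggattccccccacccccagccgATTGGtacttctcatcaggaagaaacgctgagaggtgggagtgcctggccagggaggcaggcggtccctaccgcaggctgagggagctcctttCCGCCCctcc
Acan: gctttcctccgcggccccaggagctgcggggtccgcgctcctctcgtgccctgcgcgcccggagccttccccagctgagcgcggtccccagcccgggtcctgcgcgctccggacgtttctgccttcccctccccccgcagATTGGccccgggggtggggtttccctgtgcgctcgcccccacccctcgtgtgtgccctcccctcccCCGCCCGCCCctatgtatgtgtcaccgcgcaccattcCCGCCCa
Has1: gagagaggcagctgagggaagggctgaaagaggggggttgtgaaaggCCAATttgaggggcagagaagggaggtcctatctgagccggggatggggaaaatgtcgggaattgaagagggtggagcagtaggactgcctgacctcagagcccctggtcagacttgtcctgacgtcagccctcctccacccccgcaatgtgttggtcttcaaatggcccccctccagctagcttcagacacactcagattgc
The Vcan window held 2 GC boxes, the Acan window 3, of which a pair overlap in its single longest run of capitals, and the Has1 window 0. Each of the 3 held 1 CCAAT box. Over all 32851 windows of the same length, 32.7% held a GC box and 33.8% a CCAAT box, so both are common letters in promoters. Neither the TATA box letters TATAAA (12.4% of windows) nor the AP-1 letters TGANTCA (6.75% of windows) occurred in any of the 6 member windows that the table holds, those of Vcan, Acan, Has1, Hapln1, Cd44 and Hyal2. GC content was 62.4% for Vcan, 74.4% for Acan and 58% for Has1.

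The members differed widely in level. Per kilobase of exon (RPKM, computed from the same CPM), Hyal2 was the most abundant at 8.19 ± 1.72, followed by Vcan at 3.85 ± 1.35 and Cd44 at 2.87 ± 0.672 (SD, n = 12 libraries). Hyal2 exceeded Vcan in 12 of 12 libraries, and Vcan exceeded Cd44 in 11 of 12. This order depends on the exon length, taken over all annotated transcripts, at 14462 bases for Vcan and 3293 for Hyal2. In CPM, without that division, Vcan averaged 55.7, Hyal2 27.0 and Cd44 19.5. The synthase Has2 followed at 0.403 ± 0.0899 RPKM. Hapln1 (0.179 ± 0.132), Acan (0.172 ± 0.206) and Has1 (0.097 ± 0.065) lay lowest and within each other's spread: Hapln1 exceeded Acan in 8 of 12 libraries, and Acan exceeded Has1 in 8 of 12. The receptor, the hyaluronidase and 1 hyalectan were therefore read from 198 to 2261 reads per library each, whereas Acan had 1 to 155, Hapln1 2 to 69, Has1 3 to 34 and Has2 20 to 63 reads. Between the highest and the lowest library, CPM differed 108-fold for Acan, 24-fold for Hapln1 and 7.89-fold for Has1, but 1.98-fold for Hyal2.

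**Figure D1:**
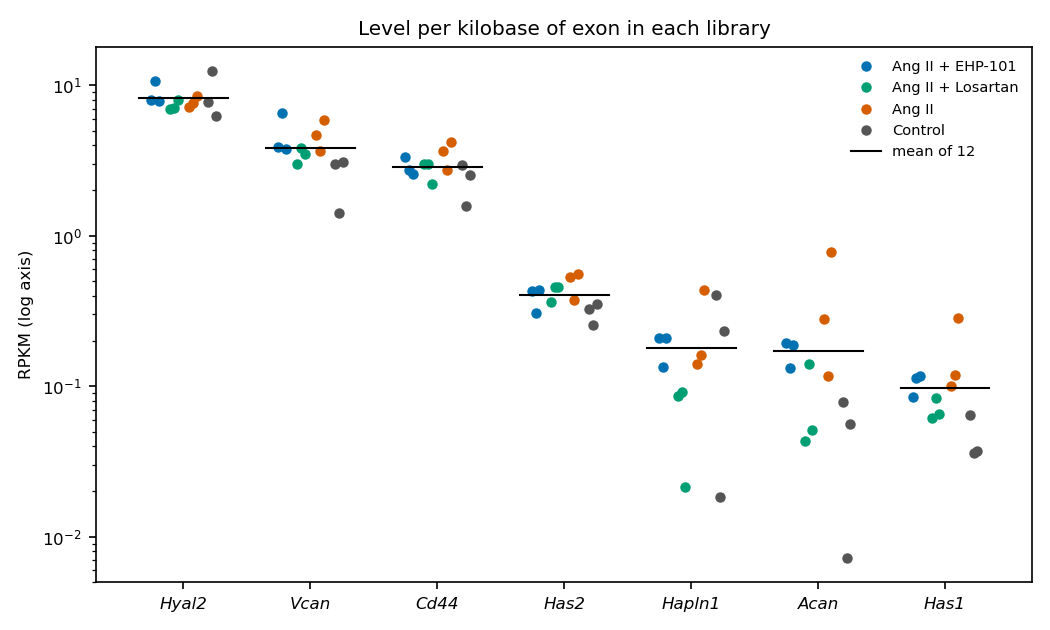
Level of each gene per kilobase of exon (RPKM, log axis) in the 12 libraries, coloured by group, with the mean of all 12 as a line. Hyal2, Vcan and Cd44 averaged 8.19, 3.85 and 2.87 RPKM, while Hapln1, Acan and Has1 averaged 0.179, 0.172 and 0.097 and overlapped.

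The comparison of Ang II with Control asks what 4 weeks of the hormone did to these genes in the heart. The hyalectans and synthases among the 7 were higher in every Ang II library than in every Control library. The groups overlapped for the receptor, the link protein and the hyaluronidase. None of the 7 passed an adjusted p under 0.05 in edgeR, where 0.541% of all tested genes did (83 of 15336). At an unadjusted p under 0.05, 5 of 7 passed, all higher, against 9.09% of all genes higher. The Ang II and Control libraries did not overlap for 4 of 7, Vcan, Acan, Has1 and Has2, all higher, against 12.3% of all genes higher. Acan and Has1 are in both counts, yet they had enough reads to be tested only through the Ang II and Ang II + EHP-101 libraries. Has1 had 3 to 7 reads in the Control libraries and 6 to 9 in the Ang II + Losartan libraries. DESeq2 called 1 of 7, Acan, where it called 2.39% of genes higher. The median log2 fold change of the 7 was 0.64, against -0.0007 over all tested genes. Since the members and lists were chosen with earlier results of these data known, such shares describe them and do not test them as sets.

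**Figure D2:**
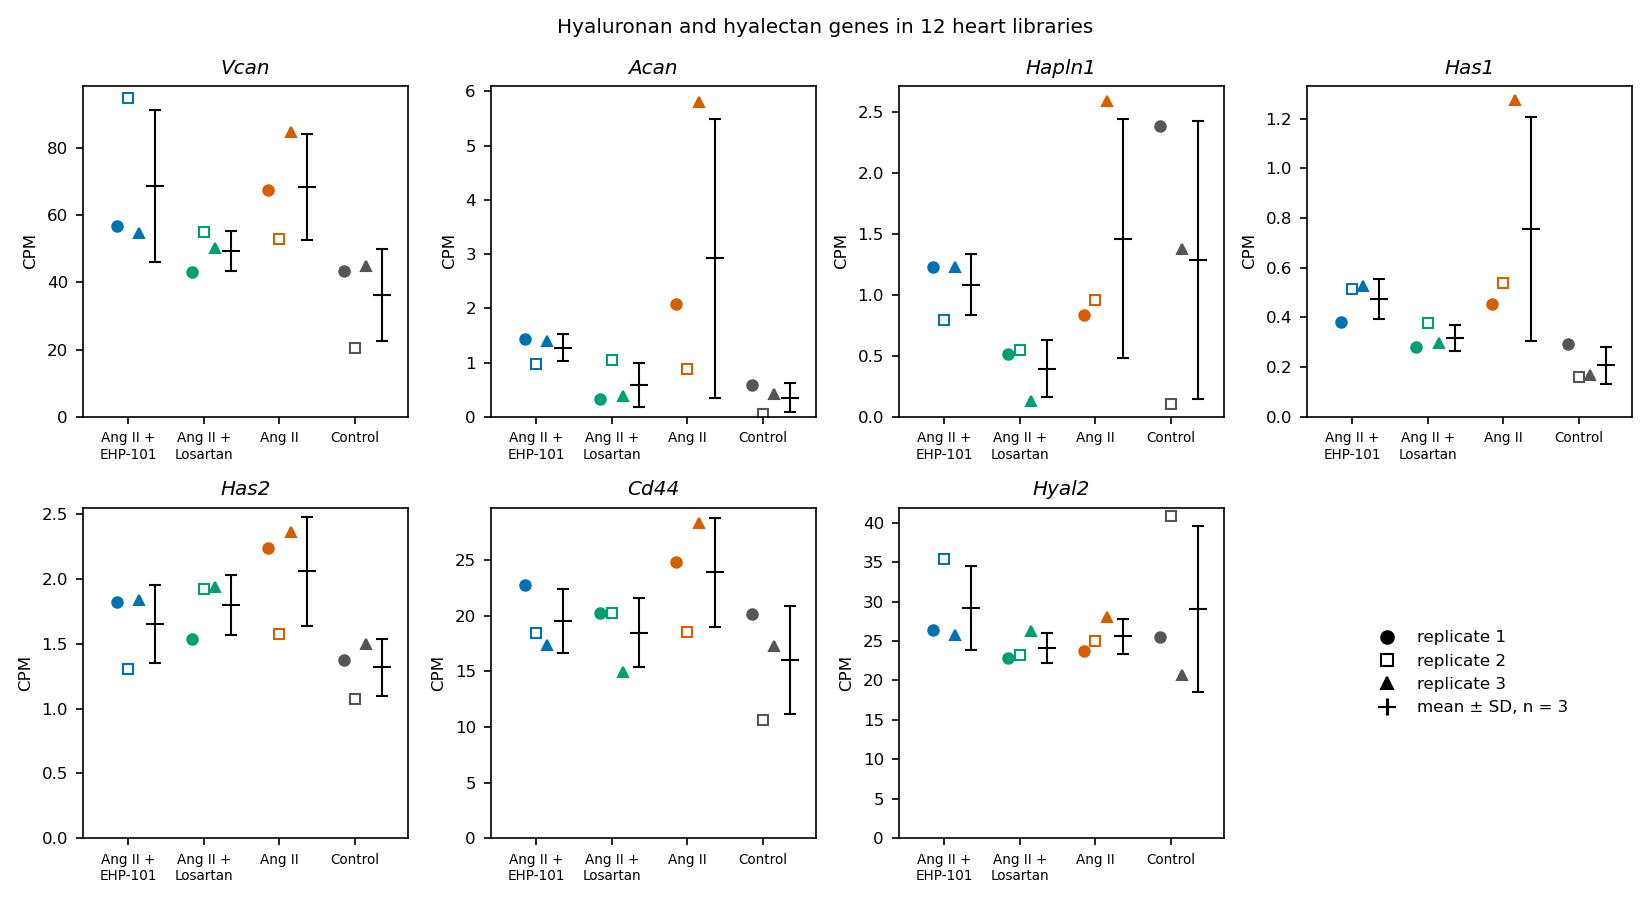
CPM (per-million counts, linear axis from 0) of each gene in every library, by group, with replicate number as the symbol and mean ± SD (n = 3) beside each group. Vcan, Acan, Has1 and Has2 have every Ang II library above every Control library, and Control replicate 2 is the lowest Control library in each panel but that of Hyal2.

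Versican, the more abundant hyalectan here, measured 67.6, 53.0 and 84.7 CPM in hearts given Ang II, against 43.6, 20.5 and 44.9 CPM in the Control libraries. The lowest Ang II library was above the highest Control library, and the gap between them was smaller than the spread within either group. Group means were 68.4 ± 15.9 and 36.3 ± 13.7 CPM (SD, n = 3 each), a 1.88-fold difference, or 0.91 ± 0.29 in log2 (SE, adjusted p = 0.181 in edgeR, 0.0611 in DESeq2). Without Control replicate 2 the log2 fold change was 0.63.

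Aggrecan, the main proteoglycan of cartilage and also a component of heart valves and large arteries, showed the largest relative difference of the 7. Its level was 2.09, 0.872 and 5.81 CPM in hearts given Ang II (55, 21 and 155 reads), against 0.585, 0.0538 and 0.417 CPM in the Control libraries (14, 1 and 10 reads). The Ang II libraries themselves were spread over a wider range than separated the groups, with replicate 3 far above the other two. The fitted log2 fold change was 2.98 ± 0.72, a 7.89-fold difference, which did not pass in edgeR (adjusted p = 0.101) and passed in DESeq2 (adjusted p = 0.00281). Leaving out single libraries gave log2 fold changes of 2.01 (without Ang II replicate 3) to 3.51 (without Control replicate 1), and the gene passed in edgeR without Ang II replicate 2 (adjusted p = 0.0383), the lowest Ang II library.

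Among the synthases, Has1, the least abundant member, had 0.456, 0.54 and 1.27 CPM with Ang II (12, 13 and 34 reads), against 0.292, 0.162 and 0.167 CPM in Control (7, 3 and 4 reads). All Ang II libraries were above all Control libraries, from a sum of 59 reads (95% Poisson interval 44.9 to 76.1, for counting error only) against 14 reads (7.65 to 23.5). The Has1 difference was 1.83 ± 0.47 in log2 (3.56-fold, adjusted p = 0.115 in edgeR, 0.0727 in DESeq2), or 1.23 without Ang II replicate 3. Has2, the synthase that forms most of the embryonic cardiac hyaluronan in mice, had 2.24, 1.58 and 2.36 CPM with Ang II, against 1.38, 1.08 and 1.5 CPM in Control. Here too the groups did not overlap, though the nearest libraries, at 1.58 and 1.5 CPM, were close. For Has2 the log2 fold change was 0.64 ± 0.25 (1.55-fold, edgeR adjusted p = 0.236).

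CD44, which binds hyaluronan on leukocytes and fibroblasts, was measured at 24.8, 18.6 and 28.3 CPM with Ang II, against 20.1, 10.7 and 17.3 CPM in the Control libraries. The groups overlapped, since Ang II replicate 2 lay below Control replicate 1. The log2 fold change of Cd44 was 0.57 ± 0.23 (adjusted p = 0.241) and 0.35 without Control replicate 2.

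Hapln1, which clamps hyalectans to hyaluronan, was measured at 0.835, 0.955 and 2.59 CPM with Ang II, against 2.38, 0.108 and 1.38 CPM in the Control libraries. Each group held both low and high libraries, and the 95% interval of the log2 fold change ran from -1.32 to 1.62 around 0.15 (adjusted p = 0.922). Its sign turned without Ang II replicate 3 (-0.55) and without Control replicate 2 (-0.36). Hyal2 had 23.7, 25 and 28 CPM with Ang II, against 25.6, 40.8 and 20.7 CPM in Control, so that its groups overlapped as well. The log2 fold change of Hyal2 was -0.18 (95% interval -0.64 to 0.28, adjusted p = 0.667), and it was 0.15 without Control replicate 2 and 0.0298 when libraries were scaled by size alone, a scaling that moves the median of all genes to 0.17.

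The link protein genes next to the hyalectan genes were set beside them. Hapln3, the neighbour of Acan, had 0.364 ± 0.0596 CPM with Ang II and 0.477 ± 0.0406 CPM in Control (SD, n = 3 each), and its groups did not overlap. The Hapln3 log2 fold change, from 6 to 13 reads per library, was -0.39 ± 0.35 (edgeR adjusted p = 0.548), beside 2.98 for Acan. For the pair on chromosome 13, the log2 fold changes were 0.15 for Hapln1 and 0.91 for Vcan. The differences between neighbours were not tested. The other hyalectan and link protein genes were below the count minimum, with 66 reads of Bcan, 31 of Hapln4, 8 of Hapln2 and 6 of Ncan over all 12 libraries.

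Summed markers of fibroblasts and of smooth muscle separated the Ang II from the Control libraries. The full sums of the other cell types listed did not. The 7 fibroblast markers summed to 1959 to 2383 CPM with Ang II + EHP-101, 1375 to 2014 with Ang II + Losartan, 2173 to 3297 with Ang II and 1147 to 1705 CPM in Control, so that the Ang II and Control groups did not overlap. The 4 smooth muscle markers summed to 313 to 452 CPM with Ang II + EHP-101, 231 to 498 with Ang II + Losartan, 397 to 707 with Ang II and 230.5 to 333 CPM in Control, again without overlap between Ang II and Control. The 11 leukocyte markers summed to 133 to 249 CPM with Ang II + EHP-101, 217 to 297 with Ang II + Losartan, 301 to 413 with Ang II and 261 to 373 CPM in Control. Lyz2, the most abundant of them, had 268.5 CPM in Control replicate 2. Without Lyz2 the leukocyte sums were 136 to 181 CPM with Ang II and 105 to 133 CPM in Control, without overlap. In a bulk sample, more cells of a type cannot be told apart from more RNA per cell. The 6 markers of valve and cartilage-type matrix summed to 83.4 to 88.6 CPM with Ang II + EHP-101, 42.2 to 66 with Ang II + Losartan, 64.6 to 135 with Ang II and 24.1 to 92.7 CPM in Control. One of them, the cartilage collagen Col2a1, had 10.5 CPM in Ang II replicate 3, at most 0.613 CPM in each of the other 11 libraries and 0 in Control replicate 1. That library also held the most Acan (5.81 CPM) and the most Hapln1 (2.59 CPM) of the 12. The 8 mesothelial and epicardial markers summed to 8.04 to 36.7 CPM with Ang II + EHP-101, 8.09 to 57 with Ang II + Losartan, 31.6 to 41 with Ang II and 8.24 to 40.8 CPM in Control, with Lrrn4, Muc16 and Bnc1 at 0 in Control replicate 2. The 7 atrial cardiomyocyte markers summed to 539 to 1157 CPM with Ang II + EHP-101, 77.5 to 2144 with Ang II + Losartan, 1592 to 2865 with Ang II and 299 to 1899 CPM in Control, and the labels do not say which part of the heart was sampled. The part of these cell types in the differences was not tested.

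**Figure D3:**
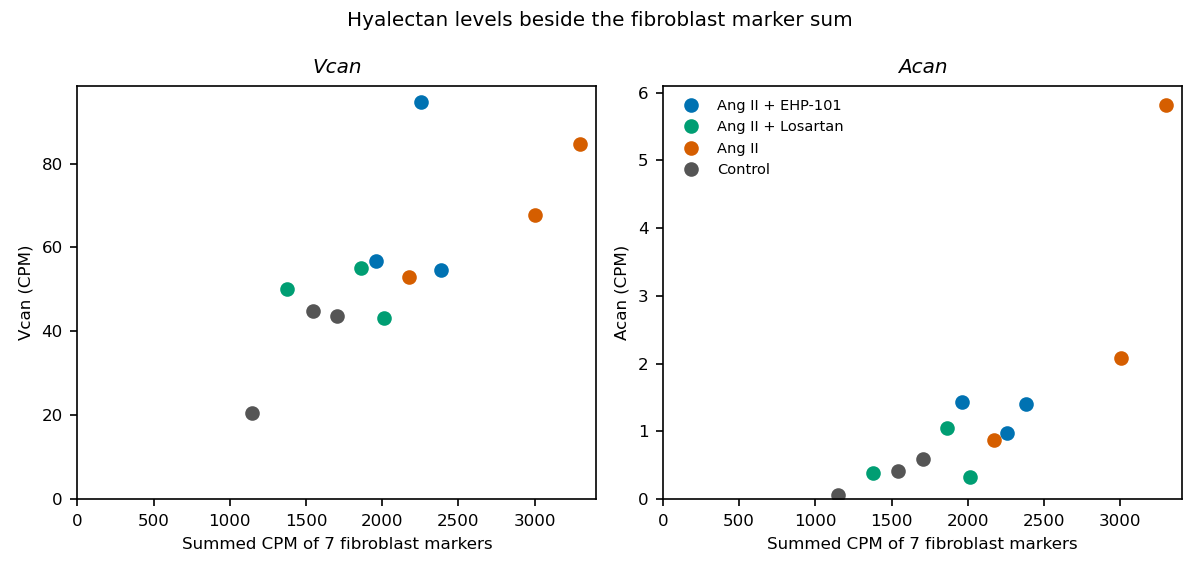
CPM of Vcan (left) and Acan (right) against the summed CPM of 7 fibroblast markers, 1 point per library, coloured by group. The Ang II libraries lie at fibroblast sums of 2173 to 3297 and the Control libraries at 1147 to 1705, and Ang II replicate 3 is highest on both axes for Acan.

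The treatment comparisons ask which of these genes differed once a drug was added to the infusion. Both use the same 3 Ang II libraries, so they are not independent of each other or of the comparison with Control. In edgeR 0% of all genes were called in either, and 0 of the 7 members. At an unadjusted p under 0.05, 784 genes were lower with EHP-101 (5.11%) and 942 were lower with losartan (6.14%). In either direction the EHP-101 count was 1108 genes (7.22%). DESeq2 called 0 of the 7 in both, with 0.386% of all genes called for EHP-101 and 0.734% for losartan.

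With losartan added, all 7 members had a log2 fold change below 0 against Ang II alone, with a median of -0.47 beside 0.003 over all genes. At an unadjusted p under 0.05 there were 3 of 7 lower, against 6.14% of all genes, and 2 of 7 did not overlap, both lower, against 10.5% of all genes lower. Acan had 0.325, 1.04 and 0.38 CPM in the Ang II + Losartan libraries, beside the 2.09, 0.872 and 5.81 CPM of the Ang II libraries. Losartan replicate 2 lay inside the Ang II range. The log2 fold change was -2.31 ± 0.68 (adjusted p = 0.349 in edgeR, 0.0755 in DESeq2), and -1.33 without Ang II replicate 3. Hapln1 had 0.511, 0.544 and 0.127 CPM with losartan (11, 13 and 3 reads), all below the lowest Ang II value of 0.835 CPM. For Hapln1 the log2 fold change was -1.89 ± 0.77 (edgeR adjusted p = 0.512), or -1.18 without Ang II replicate 3. Has1 was likewise below the Ang II libraries throughout, at 0.279, 0.376 and 0.295 CPM. The Has1 difference was -1.24 ± 0.44 in log2 (edgeR adjusted p = 0.424), or -0.64 without Ang II replicate 3.

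Vcan had 43.2, 55 and 50.2 CPM in the Ang II + Losartan libraries. This range overlapped that of the Ang II libraries and enclosed the 2 higher Control libraries. The log2 fold change against Ang II was -0.47 (95% interval -1.09 to 0.16, adjusted p = 0.719). Cd44 had 20.2, 20.3 and 14.9 CPM with losartan, and Has2 had 1.53, 1.92 and 1.94 CPM, both overlapping the Ang II range (log2 fold changes -0.37 and -0.20, edgeR adjusted p = 0.711 and 0.904). Hyal2, at 22.8, 23.3 and 26.3 CPM, had a log2 fold change of -0.08 (95% interval -0.54 to 0.37).

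With EHP-101 added, 0 of 7 members passed an unadjusted p of 0.05, where 7.22% of all genes did, and 0 of 7 had groups without overlap, where 16.8% of all genes did. Versican measured 56.7, 94.8 and 54.6 CPM in the Ang II + EHP-101 libraries, beside 67.6, 53.0 and 84.7 CPM in those given Ang II alone. The highest Vcan value of all 12 libraries was EHP-101 replicate 2, and the other two EHP-101 libraries sat near the lowest Ang II library. The log2 fold change was 0.0049 (95% interval -0.62 to 0.63, adjusted p = 0.999), and -0.30 without that replicate. It was -0.17 when libraries were scaled by size alone, a scaling that moves the median of all genes to -0.15. Acan had 1.44, 0.982 and 1.4 CPM with EHP-101, a narrow range inside that of the Ang II libraries. The log2 fold change of Acan was -1.20 ± 0.63 (adjusted p = 0.782), but -0.22 without Ang II replicate 3, and that of Has1 was -0.68 with all libraries and -0.07 without that one.

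The remaining members under EHP-101 overlapped the Ang II range. Has1 had 0.381, 0.514 and 0.525 CPM, Has2 1.82, 1.31 and 1.84 CPM, and Hapln1 1.23, 0.795 and 1.23 CPM. Cd44 had 22.7, 18.5 and 17.3 CPM, and Hyal2 26.4, 35.4 and 25.8 CPM. The log2 fold changes against Ang II ran from -0.68 (Has1) to 0.19 (Hyal2), with the interval of Hapln1, the widest of these 5, from -1.92 to 1.06.

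**Figure D4:**
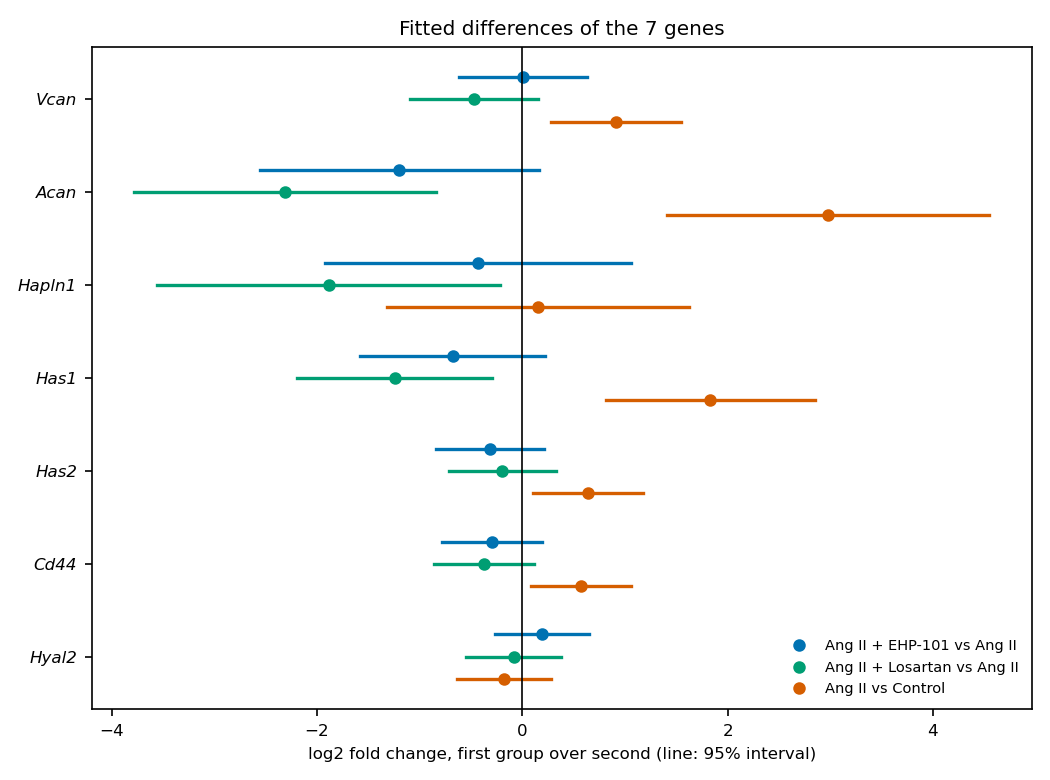
Fitted log2 fold changes of the 7 genes with 95% intervals, for Ang II + EHP-101 against Ang II, Ang II + Losartan against Ang II, and Ang II against Control. The interval lies above 0 for Vcan, Acan, Has1, Has2 and Cd44 under Ang II, and below 0 for Acan, Hapln1 and Has1 under losartan, while every EHP-101 interval includes 0, all before adjustment over the 15336 genes.

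Set against Control, Ang II + EHP-101 hearts had 3 of 7 members without overlap, all higher, beside 10.7% of all genes higher. These were Vcan, Acan and Has1, at 68.7 ± 22.6, 1.27 ± 0.253 and 0.474 ± 0.0806 CPM with EHP-101 and 36.3 ± 13.7, 0.352 ± 0.271 and 0.207 ± 0.074 CPM in Control (SD, n = 3 each). Their log2 fold changes were 0.92 ± 0.29, 1.78 ± 0.75 and 1.15 ± 0.50, with adjusted p values of 0.173, 0.265 and 0.274 in edgeR. The same 3 passed an unadjusted p under 0.05, beside 8.76% of all genes higher. With only these 2 groups fitted, Has1 had too few reads to be tested. edgeR called 0 of 7 where it called 0.398% of all genes, and DESeq2 0 of 7 where it called 3.34%. In Ang II + Losartan hearts 1 of 7, Has2, was without overlap and higher than in Control, beside 8.27% of all genes, at 1.8 ± 0.23 and 1.32 ± 0.219 CPM (log2 fold change 0.44 ± 0.25, adjusted p = 0.474). Hapln1 averaged 0.394 ± 0.232 CPM with losartan and 1.29 ± 1.14 CPM in Control (log2 fold change -1.74 ± 0.78, edgeR adjusted p = 0.456), the 1 member lower at an unadjusted p under 0.05, beside 5.16% of all genes. That log2 fold change was -0.97 without Control replicate 1 and -2.24 without Control replicate 2. edgeR called 0% of all genes and DESeq2 0.161%, with 0 of the 7 in both, though DESeq2 gave Has1 no adjusted p here.

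Between the treatments, 2 of 7 members did not overlap, both higher with EHP-101, beside 6.57% of all genes. Hapln1 had 1.08 ± 0.249 CPM with EHP-101 and 0.394 ± 0.232 CPM with losartan (log2 fold change 1.46, 95% interval -0.26 to 3.17, adjusted p = 0.873). Has1 had 0.474 ± 0.0806 CPM with EHP-101 and 0.317 ± 0.0522 CPM with losartan (log2 fold change 0.57, 95% interval -0.44 to 1.57, adjusted p = 0.955). The nearest Has1 libraries, EHP-101 replicate 1 at 0.381 CPM and losartan replicate 2 at 0.376 CPM, held 9 reads each of 23521895 and 23266399, so that their order turns if libraries are scaled by total count alone. Vcan averaged 68.7 ± 22.6 CPM with EHP-101 and 49.5 ± 5.96 CPM with losartan, with overlapping libraries (log2 fold change 0.47, 95% interval -0.15 to 1.10, adjusted p = 0.906). At an unadjusted p under 0.05 there were 0 of 7 members, beside 6.04% of all genes, and edgeR called 0% and DESeq2 0.103% of all genes, with 0 of the 7 in both.

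Other genes of the pathway were read from lists. Of 23 genes that supply, bind or degrade hyaluronan, 21 were tested, and for Ang II against Control edgeR called 0, with 8 at an unadjusted p under 0.05, all higher, beside 9.09% of all genes higher, and 5 higher in DESeq2, beside 2.39% of all genes (median log2 fold change 0.33). Tnfaip6, which transfers heavy chains onto hyaluronan in inflamed tissue, averaged 3.83 ± 1.27 CPM with Ang II and 1.84 ± 0.104 CPM in Control (log2 fold change 1.05 ± 0.24, adjusted p = 0.0874 in edgeR and 0.0159 in DESeq2). Cemip, a protein needed for hyaluronan breakdown by fibroblasts, averaged 1.16 ± 0.648 CPM with Ang II and 0.185 ± 0.169 CPM in Control (log2 fold change 2.57 ± 0.64, adjusted p = 0.109 and 0.0139). Ugdh, the enzyme that makes the UDP-glucuronate used by the synthases, had a log2 fold change of 0.51 ± 0.14, and Itih5, of the heavy chain family, one of 1.09 ± 0.31 (adjusted p = 0.136 and 0.147 in edgeR, 0.0422 and 0.0293 in DESeq2).

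The proteins that bind versican or cut it were measured too. Of 5 matrix partners of the hyalectans, edgeR called 1 higher, beside 0.541% of all genes in either direction. That gene was tenascin-C (Tnc), at 25.2 ± 8.68 CPM with Ang II and 3.1 ± 1.07 CPM in Control (log2 fold change 3.01 ± 0.32, adjusted p = 0.00176). DESeq2 called 4 of the 5 higher, beside 2.39% of all genes higher. Besides Tnc these were the fibulins Fbln1 and Fbln2 and the fibrillin Fbn1 (log2 fold changes 0.96, 0.69 and 1.25, edgeR adjusted p = 0.153, 0.148 and 0.0671). Of 7 ADAMTS proteases that cut versican or aggrecan, 0 were called in edgeR and 2 were higher at an unadjusted p under 0.05, beside the same 9.09%. DESeq2 called 1 higher, beside 2.39% of all genes higher. That one, Adamts4, an aggrecanase, averaged 6.89 ± 1.82 CPM with Ang II and 2.71 ± 0.594 CPM in Control (log2 fold change 1.35 ± 0.32, adjusted p = 0.0988 in edgeR and 0.00755 in DESeq2).

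Chondroitin sulfate synthesis, which builds the side chains of versican, was covered by 17 genes. With Ang II 14 of 17 had a log2 fold change above 0, 8 were higher at an unadjusted p under 0.05, beside 9.09% of all genes, edgeR called 0 and DESeq2 called 1, beside 2.39% of all genes higher. That gene was Dse, an epimerase that turns chondroitin into dermatan sulfate (log2 fold change 0.65 ± 0.15, adjusted p = 0.0988 and 0.0169). The median of the list was 0.38. Of 8 partners of CD44, 7 were tested, and edgeR called 1 higher, beside 0.541% of all genes in either direction. That gene was Mmp14, a membrane protease that cleaves CD44, at 48.6 ± 9.2 CPM with Ang II and 20.3 ± 4.62 CPM in Control (log2 fold change 1.25 ± 0.19, adjusted p = 0.0142). The CD44 ligand osteopontin, Spp1, had 26 ± 30.5 CPM with Ang II, an SD larger than its mean, and 2.14 ± 0.929 CPM in Control (log2 fold change 3.58 ± 0.88, adjusted p = 0.115 in edgeR and 0.00442 in DESeq2). The exons of Ugdh, Fbn1, Tnc, Adamts4, Chsy1 and Spp1 partly coincide with those of other genes, which leaves some of their reads ambiguous.

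**Figure D5:**
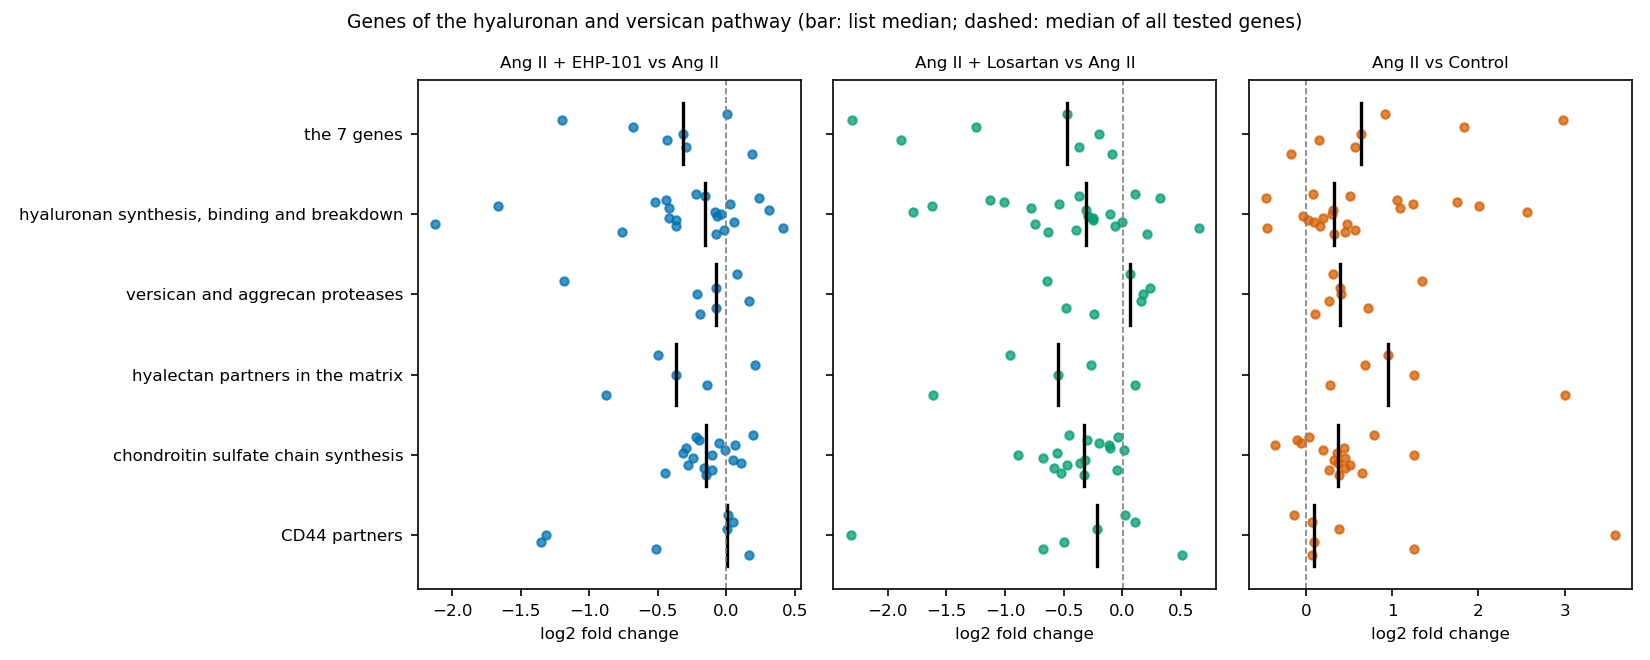
Log2 fold changes of the 7 genes and of 5 pathway lists, 1 point per tested gene, for both treatments against Ang II and for Ang II against Control. Black bars are list medians and the dashed line is the median of all tested genes. Under Ang II the medians run from 0.09 (CD44 partners) to 0.96 (matrix partners), and with losartan the chondroitin sulfate genes have a median of -0.32.

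Against Ang II alone, edgeR called 0 genes of any of these lists with either drug. With losartan 16 of the 17 chondroitin sulfate genes had a log2 fold change below 0, 6 were lower at an unadjusted p under 0.05, beside 6.14% of all genes, and DESeq2 called 2 lower, where it called 0.7% of all genes lower. They were Chsy1 and Chpf, which polymerise the chain, at 14.9 ± 0.314 and 23 ± 3.5 CPM with losartan and 21.9 ± 2.82 and 36.7 ± 5.14 CPM with Ang II alone (log2 fold changes -0.55 ± 0.12 and -0.67 ± 0.15, edgeR adjusted p = 0.226 each, DESeq2 0.0194 and 0.0184). Tnfaip6 averaged 1.75 ± 0.131 CPM with losartan and 3.83 ± 1.27 CPM with Ang II alone (log2 fold change -1.13 ± 0.24, adjusted p = 0.212 in edgeR, 0.0184 in DESeq2), and Tnc had a log2 fold change of -1.62 ± 0.30 (0.166 and 0.000354). With EHP-101 those at an unadjusted p under 0.05, all lower, were 5 of 21 hyaluronan genes, 1 of 7 proteases, 1 of 5 matrix partners, 2 of 17 chondroitin sulfate genes and 2 of 7 CD44 partners, beside 5.11% of all genes lower. In lists this short, counts of 1 or 2 genes are too small to be judged against that share. The smallest p-values among them belonged to Tlr2, a receptor that senses hyaluronan fragments and versican, at 5.62 ± 0.794 CPM with EHP-101 and 9.53 ± 2.33 CPM with Ang II alone (log2 fold change -0.76 ± 0.18, adjusted p = 0.328), and Adamts4, at 3.04 ± 1.24 CPM with EHP-101 and 6.89 ± 1.82 CPM with Ang II alone (log2 fold change -1.18 ± 0.32, adjusted p = 0.365). DESeq2 called 0 list genes with EHP-101 against Ang II alone.

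The protein-coding genes whose log2 CPM was most like that of Vcan over the 12 libraries were Xylt1, which starts chondroitin sulfate chains on core proteins, Ano6, Msn, Crispld2, Mtpn and Cdc42bpa, with Pearson correlations of 0.94 to 0.96. With the group means taken off these were 0.91 to 0.95, and without Control replicate 2 they were 0.87 to 0.92. For Cd44 they were Ptprz1, Selp, Chst11, Npnt, Chl1 and Alcam, at 0.93 to 0.97, with 0.92 to 0.98 after group means were taken off and 0.87 to 0.94 without Control replicate 2. Among the 7 members the highest correlation was that of Acan and Has1 (0.89, and 0.70 with group means taken off) and the lowest that of Has2 and Hyal2 (-0.51, and -0.54). With group means taken off, the order changed: the highest was that of Hapln1 and Cd44 (0.88) and the lowest that of Hapln1 and Hyal2 (-0.69). These values are descriptions over 12 libraries that share depth, scaling and tissue composition.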

How the data were processed

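Read counts per gene were analysed in 12 heart libraries. The authors deposited raw counts, whole numbers per gene. Per the labels' protocols, RNA was extracted with Qiazol, and 300 ng per sample went through oligo-dT selection and the TruSeq RNA kit v2 to 50 bp single-end reads. The tools, per the submitters' processing notes, were fastp 0.20.0, HISAT2 2.1.0, featureCounts 2.0.0 and edgeR 3.30.0, with GRCm38 as the build. The annotation used for counting is not given in the sources used here, and GENCODE M21 supplied positions and exon lengths. Symbols matched 47224 of 47729 gene IDs, and promoter windows from RefSeq matched 6 of 7 members.

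Genes were kept with filterByExpr (minimum count 10), scaled by TMM and fitted in R 4.3.3 with edgeR 4.0.16, 1 mean per group over all 12 libraries, with a robust quasi-likelihood F test (two-sided) and Benjamini-Hochberg adjustment over 15336 genes, threshold 0.05. The 6 comparisons of the groups were tested. CPM use TMM-scaled library sizes, RPKM divide them by union exon length, and log2 CPM have a prior count of 2. The SE is the absolute log2 fold change over the square root of F. The script was tested on simulated data. Each result was recomputed with no filter, with a replicate block, with DESeq2 1.42.0, with RLE factors or library size alone for scaling, with only the 2 groups compared, and without each library. Members with too few reads in the 2 groups alone were not tested in that setting.

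All 7 members are named. At most 4 genes of a pathway list, by smallest p, are named per comparison, and the genes most like Vcan and Cd44 were the 6 with the highest correlation. Members and lists were chosen with earlier results of these data known. With 3 libraries per group an exact permutation test cannot reach a p under 0.1, so none was run. Replicates differed by more than sampling noise in each group.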

Additional observations from a re-analysis of the deposited data

How the results depend on the processing

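Of 752 refits of single members, 730 kept both direction and side of the threshold, 2 passed newly, and 20 turned sign. The 730 include Has1 for losartan against Control in DESeq2, which gave it no adjusted p. Low-count members dropped out of some fits of only the 2 groups. Among them were Has1 for EHP-101 against Control, and Acan and Has1 for losartan against Control. The 2 that passed newly were Acan for Ang II against Control, in DESeq2 and without Ang II replicate 2, so that 1 member instead of 0 was called there. Scaling by library size alone turned Hyal2 for Ang II against Control (0.0298) and Vcan for EHP-101 against Ang II (-0.17). That scaling moved the median of all genes to 0.17 and -0.15 in these comparisons. Leaving out 1 library gave the other 18 turns. For Ang II against Control the range was -0.55 to 0.91 for Hapln1 and -0.36 to 0.15 for Hyal2. For EHP-101 against Ang II it was -0.30 to 0.18 for Vcan and -0.70 to 0.28 for Hapln1. For EHP-101 against Control it was -0.79 to 0.48 for Hapln1 and -0.18 to 0.34 for Hyal2. For losartan against Control it was -0.0553 to 1.21 for Acan, -0.0114 to 0.40 for Cd44 and -0.45 to 0.0692 for Hyal2. For EHP-101 against losartan it was -0.0529 to 0.16 for Cd44 and -0.22 to 0.0153 for Has2. The cause was not tested.

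Counts over all genes moved more. For Ang II against Control 83 genes became 513 in DESeq2, 167 with no filter, 20 with only the 2 groups and 8 to 151 without 1 library, and for EHP-101 against Control 61 became 492, 158, 14 and 5 to 62, with 22 at library size alone. For EHP-101 against Ang II 0 became 61 in DESeq2, 10 with no filter and 3 with only the 2 groups, and for losartan against Ang II 0 became 108, 30 and 1, and 0 to 3 without 1 library. DESeq2 called 22 for losartan against Control and 25 for EHP-101 against losartan, where no filter gave 3 and leaving out 1 library 0 to 2. The members called without 1 library were 0 to 1 for Ang II against Control. The labels give no pairing of samples by replicate number. With group means taken off, same-numbered libraries of different groups had correlations of -0.33 to 0.33, over 0.1 in 5 of 18 pairs. With 3 libraries per group, these values cannot exclude a pairing. With the replicate number as a block, EHP-101 against Control had 36 genes instead of 61, and no member was called. Has1, Acan and Hapln1 rest on few reads, which limits what these libraries can show.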
